A study of Homo sapiens with 12 samples.

Results

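The 10 genes described here are outputs and repressors of the circadian clock: DBP, TEF, NFIL3, PER1, PER2, PER3, CRY1, CRY2, NR1D1 and NR1D2. They were taken by symbol from the 40929 gene symbols counted in every library, and all 10 were among the 15104 genes that passed the filter on low counts. The set was chosen from earlier results of these data, in which DBP was among the genes most raised in LG and in LGCAR relative to NG. For that reason the members are described without a p-value in LG or LGCAR against NG and in the glucose average that contains them. Counts of calls in those contrasts are given only as a description. Tests are given for the other comparisons, all of which reuse libraries of that choice. LGCAR against CAR shares the LGCAR libraries, LGCAR against LG those of both its groups, and CAR against NG the NG libraries. The cariporide average and the interaction share the LG, LGCAR and NG libraries. None of these tests is therefore independent of the choice.

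Cells of MDA-MB-231, an established human line of triple-negative breast cancer labelled as epithelial and wild type, were sequenced for RNA after 48 h in 1 of 4 media. LGCAR cells had 5 mM glucose with 25 µM cariporide, LG cells 5 mM glucose alone, CAR cells 10 mM glucose with 25 µM cariporide, and NG cells 10 mM glucose alone, with 3 libraries in each group. Cariporide inhibits the sodium-proton exchanger NHE1 at the plasma membrane. All libraries came from 1 time point, and the labels name no step that synchronised the cells, so a level here is an average over cells at unknown clock phases. The labels do not say whether libraries of 1 group are separate cultures, and the spread behind the p-values may thus be technical.

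The circadian clock is a transcriptional feedback loop. CLOCK, or its relative NPAS2, pairs with BMAL1 on E-box elements and activates the PER and CRY genes, whose proteins return to the nucleus and repress that pair. The same activators drive the nuclear receptors NR1D1 and NR1D2, also called REV-ERB alpha and beta, which repress BMAL1 transcription through ROR elements. DBP and TEF are PAR bZIP factors that activate genes through D-box elements, and NFIL3 binds the same elements as a repressor. DBP itself is a strongly rhythmic E-box target in mouse liver.

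Library totals ran from 18069004 to 24837409 counts. They followed the groups in part: the highest LGCAR total, 20464308 counts, was below the lowest of the other groups, 20771898 counts in NG 2. The part of depth in the results was not tested. The labelled cell type was checked against its markers: KRT8, an epithelial keratin, ran from 427 to 506 CPM (the count relative to the library total after TMM scaling, the unit of all levels below), VIM from 1611 to 1864 CPM and ERBB2 from 55.3 to 67.0 CPM, ESR1 was at most 0.188 CPM and PGR was at 0 in all 12 libraries. The epithelial adhesion genes EPCAM (8.74 to 13.8 CPM) and CDH1 (0.954 to 2.47 CPM) were low beside VIM, a mesenchymal filament gene. Among markers of other cell types, PTPRC of leukocytes reached 0.335 CPM, ALB of hepatocytes 0.173 CPM, PECAM1 of endothelium 2.47 CPM and COL1A1 and COL1A2 of fibroblasts 9.49 and 9.84 CPM. Of the 14 markers, 1 did not overlap between glucose levels: CDH1 ran from 1.70 to 2.47 CPM at 5 mM glucose and from 0.954 to 1.41 CPM at 10 mM glucose. COL1A2 ran from 6.96 to 9.84 CPM at 5 mM glucose and from 5.18 to 7.49 CPM at 10 mM glucose. The part of these genes' cells or states in the results was not tested. Counts from ribosomal RNA genes made up 10.2 ± 1.12% of the LGCAR libraries, 8.65 ± 0.649% of the LG libraries, 7.87 ± 0.723% of the CAR libraries and 9.48 ± 1.67% of the NG libraries (SD, n = 3 each), and LGCAR did not overlap with CAR or with LG in this share.

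The promoter sequences of 4 members are shown because these elements tie the members to each other in the feedback loop. Each is the RefSeq window of GRCh38.p14 from 250 bases before to 50 bases after an annotated start, read 5′ to 3′ on the gene's strand, with matched elements in capitals. The windows are chr19:48637330-48637629 on the minus strand for DBP, chr17:8152355-8152654 on the minus strand for PER1, chr2:238288561-238288860 on the minus strand for PER2 and chr3:23945871-23946170 on the plus strand for the second of the NR1D2 starts.
DBP: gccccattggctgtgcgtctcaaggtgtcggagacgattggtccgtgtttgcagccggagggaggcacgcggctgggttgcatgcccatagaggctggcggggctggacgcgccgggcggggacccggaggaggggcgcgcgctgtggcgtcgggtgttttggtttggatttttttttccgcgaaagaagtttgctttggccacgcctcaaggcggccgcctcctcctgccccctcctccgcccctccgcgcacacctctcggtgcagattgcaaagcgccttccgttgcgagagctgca
PER1: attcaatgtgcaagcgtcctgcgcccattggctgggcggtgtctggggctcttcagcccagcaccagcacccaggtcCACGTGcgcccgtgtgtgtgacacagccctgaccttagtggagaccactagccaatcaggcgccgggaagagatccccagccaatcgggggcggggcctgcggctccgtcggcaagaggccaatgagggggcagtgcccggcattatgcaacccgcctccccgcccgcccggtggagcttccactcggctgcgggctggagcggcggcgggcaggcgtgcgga
PER2: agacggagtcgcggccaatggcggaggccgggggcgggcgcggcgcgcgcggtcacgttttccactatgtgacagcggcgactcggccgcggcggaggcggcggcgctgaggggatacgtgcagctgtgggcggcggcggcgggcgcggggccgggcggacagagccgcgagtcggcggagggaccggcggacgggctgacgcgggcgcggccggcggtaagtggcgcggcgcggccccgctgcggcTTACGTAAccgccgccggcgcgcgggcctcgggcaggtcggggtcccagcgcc
NR1D2: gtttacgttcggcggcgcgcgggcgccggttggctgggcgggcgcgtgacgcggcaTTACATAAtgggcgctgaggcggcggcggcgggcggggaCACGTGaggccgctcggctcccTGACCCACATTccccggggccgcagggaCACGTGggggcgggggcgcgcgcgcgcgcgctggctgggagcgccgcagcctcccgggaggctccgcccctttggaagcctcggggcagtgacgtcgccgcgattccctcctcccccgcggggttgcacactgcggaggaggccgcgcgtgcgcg

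All 10 members had a promoter in the RefSeq table, 15 windows in all. The E-box CACGTG stood in 4 of the 15 windows, from 3 of the 10 members, against 7.26% of all 35116 promoters of that length. It was found at -173 from the PER1 start, at -155 and -105 from the second NR1D2 start, and at -195 and -193 from the TEF starts. The D-box, searched as TTATGTAA or TTACGTAA on both strands, was in 1.01% of all promoters and in 3 of the 15 windows: at -3 in PER2, at -177 from the first PER3 start and at -194 from the second NR1D2 start. The ROR response element, which stood in 0.316% of all promoters, was matched at -133 from the second NR1D2 start. The cyclic AMP element TGACGTCA, present in 1.85% of all promoters, was in none of the 15. The DBP window held none of the 4 elements, so it is printed without capitals. A match describes letters in the window, not a bound site. Variants of the E-box letters were not searched, so a window without CACGTG, as in PER2, is not shown to lack an E-box.

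The members differed widely in abundance. Per kilobase of exon, NFIL3 was the most abundant in NG at 16.98 ± 0.942 CPM per kb (SD, n = 3), then NR1D2 at 12.004 ± 0.762, CRY1 at 7.86 ± 0.170 and NR1D1 at 5.27 ± 0.401 CPM per kb. PER3 followed at 2.31 ± 0.232 CPM per kb. PER1 (1.504 ± 0.185) overlapped both TEF (1.41 ± 0.0628) and CRY2 (1.30 ± 0.0693 CPM per kb), while the lowest NG library of TEF, at 1.38, was above the highest of CRY2, at 1.35 CPM per kb. PER2 at 0.694 ± 0.0801 and DBP at 0.516 ± 0.0767 CPM per kb were lowest. In reads, DBP rested on 53 to 130 counts per library, and its smallest count carries a counting error of 13.7%. NR1D2, with 1447 to 2184 counts, had a counting error of at most 2.63%. These errors cover counting only.

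DBP, the PAR bZIP activator, was higher in every library with 5 mM glucose than in every library with 10 mM glucose. Its levels were 5.45, 4.83 and 6.17 CPM in LGCAR, 5.44, 5.18 and 6.12 CPM in LG, 3.65, 2.30 and 3.15 CPM in CAR, and 3.75, 3.58 and 2.81 CPM in NG. The lowest library at 5 mM glucose, LGCAR 2, had 4.83 CPM and the highest at 10 mM glucose, NG 1, had 3.75 CPM. DBP rose in LGCAR against CAR, averaging 5.48 ± 0.671 CPM in LGCAR and 3.03 ± 0.683 CPM in CAR (SD, n = 3 each). The change was 1.80-fold, or 0.85 on the log2 scale (SE 0.166, 95% interval 0.50 to 1.201, edgeR adjusted p = 0.0177). The same LGCAR libraries served in picking DBP as raised against NG, so this p-value is not independent of that choice. The call was lost without CAR 2, CAR 3, LGCAR 1 or LGCAR 3 (edgeR adjusted p = 0.0503 to 0.0910) and with the ribosomal RNA share in the fit (log2 fold change 0.76, adjusted p = 0.249). The part of that share in the result was not tested further, and that of depth, lower in LGCAR than in CAR, was not tested. CDH1 separated the same libraries by glucose level. In bulk RNA, more cells with the transcript and more transcript per cell cannot be told apart.

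**Figure D1:**
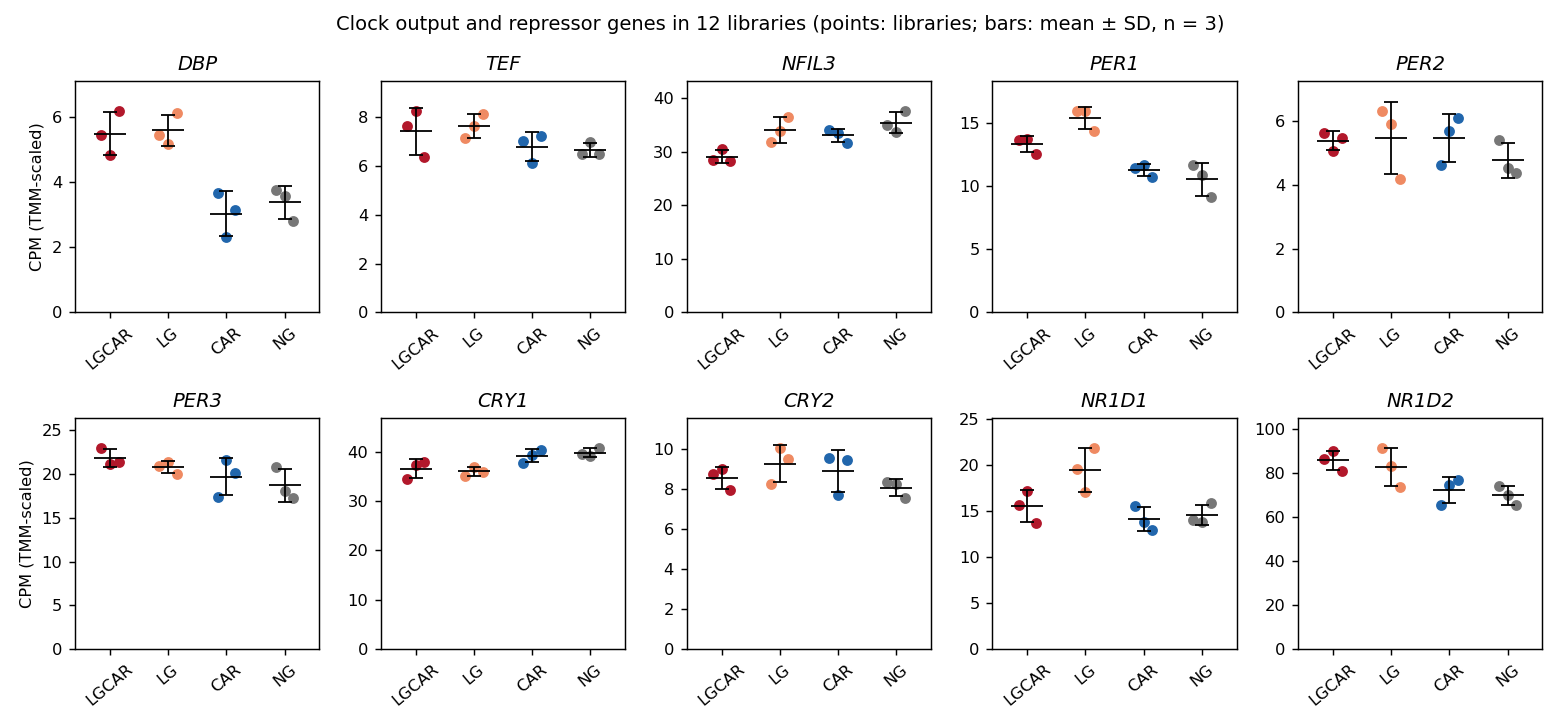
TMM-scaled CPM of the 10 genes in each library; points are libraries, and bars are the mean ± SD of 3 libraries of LGCAR, LG, CAR or NG, on axes that start at 0. DBP and PER1 have all 6 libraries at 5 mM glucose above all 6 at 10 mM glucose, while PER2 and CRY2 overlap throughout.

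The same shift stands in the contrast from which the set was picked, given as a description. DBP averaged 5.58 ± 0.488 CPM in LG and 3.38 ± 0.502 CPM in NG (SD, n = 3 each), a log2 fold change of 0.73 (SE 0.164), or 1.66-fold. In LGCAR against NG its log2 fold change was 0.70 (SE 0.167), and the glucose average over both cariporide levels was 0.79 (SE 0.117). Cariporide gave no call for DBP at either glucose level. The log2 fold change was -0.022 in LGCAR against LG (SE 0.157, 95% interval -0.35 to 0.31, edgeR adjusted p = 0.966) and -0.14 in CAR against NG (SE 0.173, 95% interval -0.51 to 0.22, edgeR adjusted p = 0.903). Its cariporide average was -0.083 (SE 0.117, edgeR adjusted p = 0.735), and the interaction, the cariporide effect at 5 mM minus that at 10 mM glucose, was 0.12 (SE 0.234). DBP lies on chromosome 19 (48630030 to 48637379, minus strand) and shares 10.1% of its exon length with SPHK2 on the opposite strand. SPHK2, a sphingosine kinase, averaged 12.5 ± 0.292 CPM in LGCAR, 12.1 ± 0.383 CPM in LG, 11.1 ± 0.475 CPM in CAR and 11.7 ± 0.829 CPM in NG (SD, n = 3 each). Whether the authors' counting used the strand is not stated in the sources used here, so reads from the shared exon cannot be assigned with certainty.

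TEF, the other PAR bZIP activator of the set, moved less. It was at 7.66, 8.25 and 6.38 CPM in LGCAR, 7.15, 7.66 and 8.15 CPM in LG, 7.03, 6.11 and 7.25 CPM in CAR, and 6.50, 7.01 and 6.50 CPM in NG. The LG libraries all lay above the NG libraries, while LGCAR 3 lay within the range of CAR. The glucose average was 0.16 on the log2 scale (SE 0.0791), and no other comparison reached 2 standard errors. TEF lies on chromosome 22 (41367455 to 41399326, plus strand).

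NFIL3, the D-box repressor, was lowest where both changes in medium met. Its levels were 28.3, 30.4 and 28.3 CPM in LGCAR, 31.7, 33.8 and 36.5 CPM in LG, 33.9, 33.5 and 31.6 CPM in CAR, and 35.0, 33.7 and 37.5 CPM in NG. All 3 LGCAR libraries lay below all 9 others, in NFIL3 and also in library total. Their ribosomal RNA share was above that of LG and CAR. NFIL3 did not pass the threshold in LGCAR against LG (-0.23 on the log2 scale, SE 0.0663, edgeR adjusted p = 0.339) or in LGCAR against CAR (-0.19, SE 0.0662, edgeR adjusted p = 0.157). In LGCAR against NG, described only, it was -0.29 (SE 0.0663). The cariporide average was -0.16 (SE 0.0462, edgeR adjusted p = 0.277) and the glucose average, described only, was -0.12 (SE 0.0462). Without CAR 1 the cariporide average of NFIL3 passed (edgeR adjusted p = 0.0367), in a fit that called 1300 of 15301 genes where the fit to all libraries called 1. NFIL3 lies on chromosome 9 (91409045 to 91483497, minus strand).

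DBP and NFIL3 compete for the same D-box, so their ratio of CPM is given as a description. It was 0.192, 0.159 and 0.218 in LGCAR and 0.172, 0.153 and 0.168 in LG, against 0.108, 0.0687 and 0.0996 in CAR and 0.107, 0.106 and 0.0747 in NG. The lowest ratio at 5 mM glucose, in LG 2, was above the highest at 10 mM glucose, in CAR 1. The group means were 0.190 ± 0.0298 in LGCAR, 0.164 ± 0.00958 in LG, 0.0919 ± 0.0205 in CAR and 0.0960 ± 0.0184 in NG (SD, n = 3 each). DBP alone already separated the glucose levels, while NFIL3 overlapped between them, so the order of the ratio is not separate from that of DBP. The ratio sets mRNA against mRNA and says nothing of the proteins.

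**Figure D2:**
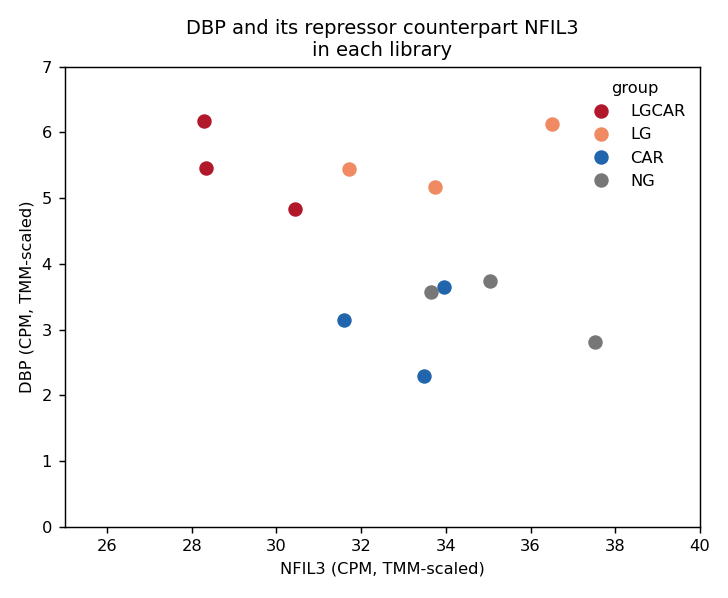
DBP (vertical axis) against NFIL3 (horizontal axis, which starts at 25), both in TMM-scaled CPM, with 1 point per library coloured by group. The 6 libraries at 5 mM glucose lie above 4.8 CPM of DBP, and the 3 LGCAR libraries are also the farthest left, at 28.3 to 30.4 CPM of NFIL3.

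Among the period genes, which encode the PER repressors, PER1 differed most between glucose levels. It was at 13.7, 13.7 and 12.6 CPM in LGCAR, 15.9, 15.9 and 14.3 CPM in LG, 11.4, 11.7 and 10.7 CPM in CAR, and 11.6, 10.9 and 9.10 CPM in NG. At 5 mM glucose the 6 libraries ran from 12.6 to 15.9 CPM, with a median of 14.009, against 9.10 to 11.7 CPM, with a median of 11.1, at 10 mM glucose. In the contrasts on which the set was selected PER1 averaged 15.4 ± 0.907 CPM in LG and 10.5 ± 1.30 CPM in NG (SD, n = 3 each), a log2 fold change of 0.55 (SE 0.0912), or 1.46-fold, and stood at 0.34 (SE 0.0939) in LGCAR against NG.

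PER1 was thus higher in LG than in LGCAR, and those groups did not overlap, in PER1 or in their ribosomal RNA share. The tests of that difference did not pass: the log2 fold change was -0.21 in LGCAR against LG (SE 0.0903, edgeR adjusted p = 0.405), and the interaction was -0.31 (SE 0.130, unadjusted p = 0.031 and adjusted p = 0.99991 by edgeR). In LGCAR against CAR the log2 fold change was 0.24 (SE 0.0923, edgeR adjusted p = 0.183), with no overlap between the groups. The glucose average, described only, was 0.40 (SE 0.0649). PER1 lies on chromosome 17 (8140472 to 8152404, minus strand), and its promoter carries the single E-box printed above.

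PER2, whose product pairs with CRY proteins, was at 5.65, 5.05 and 5.48 CPM in LGCAR, 6.32, 5.92 and 4.19 CPM in LG, 4.63, 5.68 and 6.09 CPM in CAR, and 5.40, 4.55 and 4.38 CPM in NG. Its groups overlapped in all of these media, and LG alone spanned 4.19 to 6.32 CPM. PER3, a paralogue that is less essential to the mouse clock, was at 23.0, 21.2 and 21.4 CPM in LGCAR, 21.0, 21.4 and 20.1 CPM in LG, 17.4, 21.6 and 20.1 CPM in CAR, and 20.8, 18.1 and 17.2 CPM in NG. The LGCAR libraries lay above the NG libraries, with a log2 fold change of 0.23 (SE 0.0865), and the glucose average was 0.15 (SE 0.0604), both described only. PER2 lies on chromosome 2 (238244044 to 238300065, minus strand) and PER3 on chromosome 1 (7784291 to 7845177, plus strand). PER3 shares 16.7% of its exon length with genes on the opposite strand, 10.7% with UTS2 and 5.95% with Z98884.1. UTS2 had at most 2 counts in any library, and Z98884.1 is not among the counted symbols. As for DBP, reads from the shared exons cannot be assigned with certainty.

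Of the cryptochromes, the partners of the PER proteins in repression, CRY1 had lower values at 5 mM glucose and CRY2 showed no order by medium. CRY1 was at 34.4, 37.4 and 37.9 CPM in LGCAR, 35.1, 37.0 and 35.9 CPM in LG, 37.8, 39.3 and 40.4 CPM in CAR, and 39.5, 39.1 and 40.8 CPM in NG. Its values at 5 mM glucose ran from 34.4 to 37.9 CPM, against 37.8 to 40.8 CPM at 10 mM glucose, and those ranges met only at LGCAR 3 and CAR 1. Its log2 fold changes, described only, were -0.15 in LG against NG (SE 0.0548), -0.12 in LGCAR against NG (SE 0.0554) and -0.12 in the glucose average (SE 0.0388). CRY2 was at 8.74, 8.98 and 7.93 CPM in LGCAR, 8.24, 10.0 and 9.51 CPM in LG, 9.54, 7.68 and 9.44 CPM in CAR, and 8.34, 8.27 and 7.57 CPM in NG, with overlap between all pairs of these groups that were compared. CRY1 lies on chromosome 12 (106991364 to 107093549, minus strand) and CRY2 on chromosome 11 (45847118 to 45883244, plus strand).

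The REV-ERB genes had different patterns. NR1D1 was highest in LG: it was at 15.7, 17.2 and 13.8 CPM in LGCAR, 19.6, 17.1 and 21.9 CPM in LG, 15.6, 13.9 and 13.0 CPM in CAR, and 14.1, 13.9 and 15.9 CPM in NG. LG lay above NG, with a log2 fold change of 0.41 (SE 0.103), or 1.33-fold, described only, and the glucose average was 0.27 (SE 0.0740). In LGCAR against LG it was -0.33 (SE 0.104, edgeR adjusted p = 0.354), with LGCAR 2 just above LG 2, and in the cariporide average -0.19 (SE 0.0740, edgeR adjusted p = 0.289). NR1D1 lies on chromosome 17 (40092793 to 40100589, minus strand) and shares 9.49% of its exon length with THRA, the thyroid hormone receptor alpha gene, on the opposite strand. THRA averaged 23.0 ± 2.20 CPM in LGCAR, 21.1 ± 0.838 CPM in LG, 23.9 ± 2.08 CPM in CAR and 21.9 ± 0.374 CPM in NG (SD, n = 3 each). As for DBP, reads from the shared exon cannot be assigned with certainty, and their part in the NR1D1 levels was not tested.

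NR1D2 was at 86.2, 90.0 and 81.1 CPM in LGCAR, 91.4, 83.1 and 73.7 CPM in LG, 65.4, 74.6 and 76.6 CPM in CAR, and 74.2, 70.0 and 65.4 CPM in NG. The LGCAR libraries lay above all CAR and NG libraries, while LG 3 lay within the range of both. In LGCAR against CAR the log2 fold change was 0.25 (SE 0.0787, edgeR adjusted p = 0.120). Described only, it was 0.24 in LG against NG (SE 0.0787), 0.30 in LGCAR against NG (SE 0.0791) and 0.25 in the glucose average (SE 0.0557). NR1D2 lies on chromosome 3 (23945286 to 23980617, plus strand). The window printed above, at its second start, held E-box, D-box and ROR elements together.

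**Figure D3:**
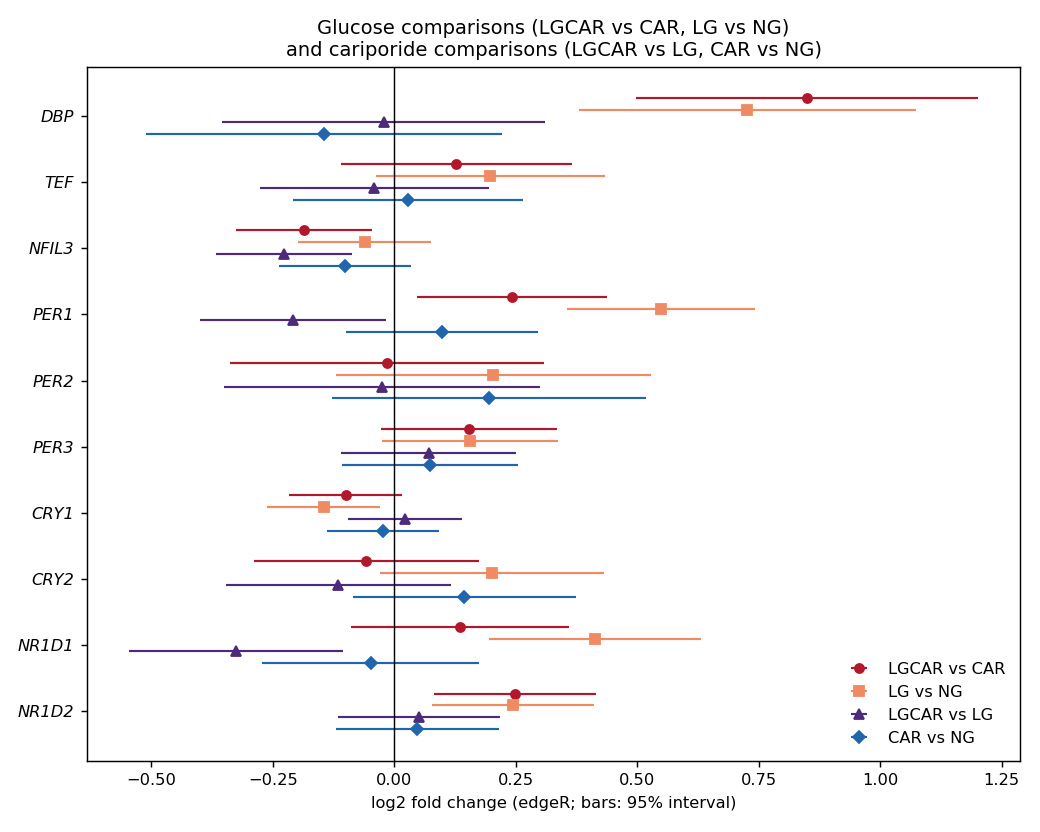
Log2 fold changes by edgeR with 95% intervals for the 10 genes, in LGCAR against CAR, LG against NG, LGCAR against LG and CAR against NG; 0 is the vertical line. In both glucose comparisons DBP is the farthest to the right, at 0.85 and 0.73, and in both cariporide comparisons its interval spans 0.

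Read over the whole set, the members' counts stand as follows beside those of all genes. In LGCAR against CAR, edgeR called 1 of 10 members, DBP, and 1.65% of all tested genes. That call shares its LGCAR libraries with the choice of the set. Groups did not overlap for DBP, PER1 and NR1D2, higher in LGCAR, and for NFIL3, lower in LGCAR, which is 4 of 10 where 25.3% of all tested genes did not overlap. The median log2 fold change was 0.13 over the members and 0.01 over all genes.

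In the contrasts that served to choose the set, the counts are a description. The choice itself favours calls there, so the shares of all genes are no test of the set. LG against NG had 2 of 10 members called, DBP and PER1, with 1.73% of all genes called, and 5 of 10 without overlap, where the share of all genes was 19.4%. The call of DBP was lost without any 1 of the 6 libraries, and the count was 1 without NG 1, NG 2, NG 3 or LG 1. The 5 were DBP, TEF, PER1 and NR1D1, higher in LG, and CRY1, lower in LG. LGCAR against NG had 4 members called, DBP, PER1 and NR1D2 higher and NFIL3 lower, with 8.75% of all genes called. That count was 0 without NG 3, LGCAR 1 or LGCAR 3, 1 without NG 2 (NFIL3) and 2 without LGCAR 2 (DBP and NFIL3). It had 6 members without overlap, the 4 called and PER3, higher, and CRY1, lower, where 38.2% of all genes did not overlap. The glucose average had 4 called, DBP, PER1, NR1D1 and NR1D2, all higher at 5 mM glucose, with 9.73% of all genes called, and the call of NR1D1 was lost in 7 of the 12 fits with 1 library left out. Over 6 libraries against 6, DBP and PER1 did not overlap, as did 4.38% of all genes. These 3 contrasts share libraries with each other, NG in the first pair, so their counts are not independent.

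In the cariporide comparisons edgeR called no member. CAR against NG had 0 members called, 0 at an unadjusted p under 0.05 and 0 without overlap; over all genes 0% were called, 4.53% had an unadjusted p under 0.05 and 9.11% did not overlap. LGCAR against LG also had 0 members called, with 3 at an unadjusted p under 0.05 (NFIL3, PER1 and NR1D1), with 11.9% of all genes at an unadjusted p under 0.05 and 0.00662% called. NFIL3 and PER1 did not overlap there, both lower in LGCAR, where 21.3% of all genes did not overlap. The interaction had 0 members called and 1 at an unadjusted p under 0.05, PER1, with 3.13% of all genes at an unadjusted p under 0.05 and 0.00662% called. The cariporide average had 0 called and 2 at an unadjusted p under 0.05, NFIL3 and NR1D1, with 15.3% of all genes at an unadjusted p under 0.05 and 0.00662% called. DESeq2 and limma-voom likewise called 0 members in these 4 comparisons.

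**Figure D4:**
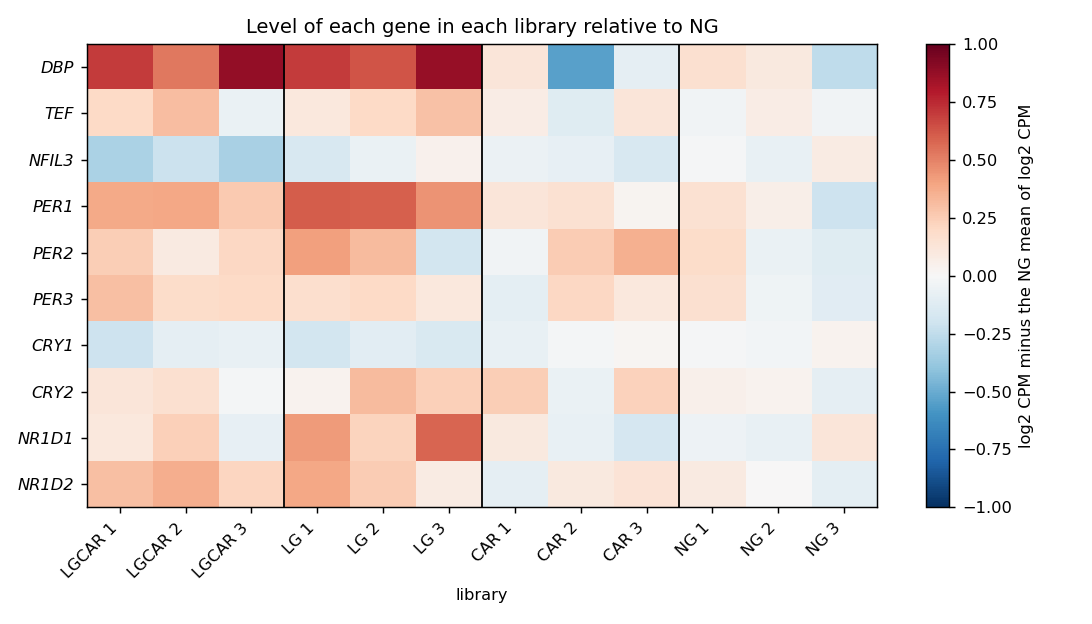
Log2 CPM of the 10 genes (rows) in each of the 12 libraries (columns, LGCAR, LG, CAR and NG, parted by lines), minus the mean of log2 CPM over NG; red is higher and blue lower than NG on a scale of -1 to 1. DBP and PER1 are red in all LGCAR and LG libraries, and NFIL3 and CRY1 are blue in all LGCAR libraries.

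The other genes of the clock were taken from 5 lists, chosen with earlier results of these data known. The p-values of their genes are therefore descriptive. Of 6 activators of the loop, all tested, 1 rose in LGCAR against CAR and none fell: NPAS2, the relative of CLOCK. NPAS2 averaged 112 ± 0.614 CPM in LGCAR and 96.9 ± 0.681 CPM in CAR (SD, n = 3 each), or 0.21 higher on the log2 scale (SE 0.0430, edgeR adjusted p = 0.0210). That call was lost under 10 of the alternatives, among them the fit with the ribosomal RNA share (edgeR adjusted p = 0.263) and the fits without CAR 2, CAR 3 or any LGCAR library (edgeR adjusted p = 0.0568 to 0.0981). In LG against NG, NPAS2 averaged 111 ± 1.90 CPM in LG and 92.2 ± 1.66 CPM in NG (SD, n = 3 each), or 0.27 higher on the log2 scale (SE 0.0430, edgeR adjusted p = 0.00426). BMAL1, the target of REV-ERB repression, was at 8.23 ± 0.688 CPM in LGCAR, 9.53 ± 1.32 CPM in LG, 9.48 ± 0.951 CPM in CAR and 10.1 ± 0.329 CPM in NG (SD, n = 3 each), and did not pass in any comparison. CLOCK was at 91.3 ± 1.40 CPM in LGCAR, 78.2 ± 10.3 CPM in LG, 83.4 ± 13.6 CPM in CAR and 74.2 ± 7.25 CPM in NG and did not pass either.

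Of 7 output genes of the clock that lie outside the loop, 2 fell in LGCAR against CAR and none rose. In that comparison 1.65% of all tested genes were called. KLF10, a zinc finger repressor, averaged 33.1 ± 0.888 CPM in LGCAR and 53.5 ± 1.4997 CPM in CAR (SD, n = 3 each; log2 fold change -0.69, edgeR adjusted p = 1.83e-06). CDKN1A, the cell cycle inhibitor p21, averaged 82.6 ± 0.675 CPM in LGCAR and 100.2 ± 4.30 CPM in CAR (SD, n = 3 each; -0.28, edgeR adjusted p = 0.0319). The CDKN1A call was lost without CAR 1, CAR 3 or any LGCAR library (edgeR adjusted p = 0.06996 to 0.126) and with the ribosomal RNA share in the fit (0.484). In LGCAR against NG, where 8.75% of all genes were called, 3 of the 7 fell, these 2 and TSC22D3, a glucocorticoid-induced gene (-0.36, edgeR adjusted p = 0.0305, lost without NG 2, NG 3, LGCAR 1 or LGCAR 3). There the CDKN1A call was lost without NG 2, NG 3 or any LGCAR library (edgeR adjusted p = 0.0604 to 0.0843). These genes answer many signals besides the clock. Values of KLF10 under the alternatives are not reported here.

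No gene of the other 3 lists passed in any comparison. They held 3 tested of 4 further E-box and D-box factors, 8 tested of 9 genes of PER and CRY turnover, and 3 tested of 4 genes known as PAR bZIP targets in mouse liver. With so few genes tested, and 1.65% of all genes called in LGCAR against CAR, the absence of calls says little of these lists. HLF, the remaining PAR bZIP factor, had only 1 to 11 counts per library and was not tested. Among the mouse liver targets, POR averaged 45.4 ± 2.10 CPM in LGCAR and 45.7 ± 3.08 CPM in CAR. ALAS1 averaged 47.5 ± 2.65 CPM in LGCAR and 48.3 ± 3.62 CPM in CAR. PDXK was higher in LGCAR, at 131 ± 7.83 CPM against 114 ± 9.44 CPM in CAR (SD, n = 3 each). Its log2 fold change was 0.20 (SE 0.0802, edgeR adjusted p = 0.208). LGCAR and CAR did not overlap in PDXK, as was so for 25.3% of all tested genes.

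**Figure D5:**
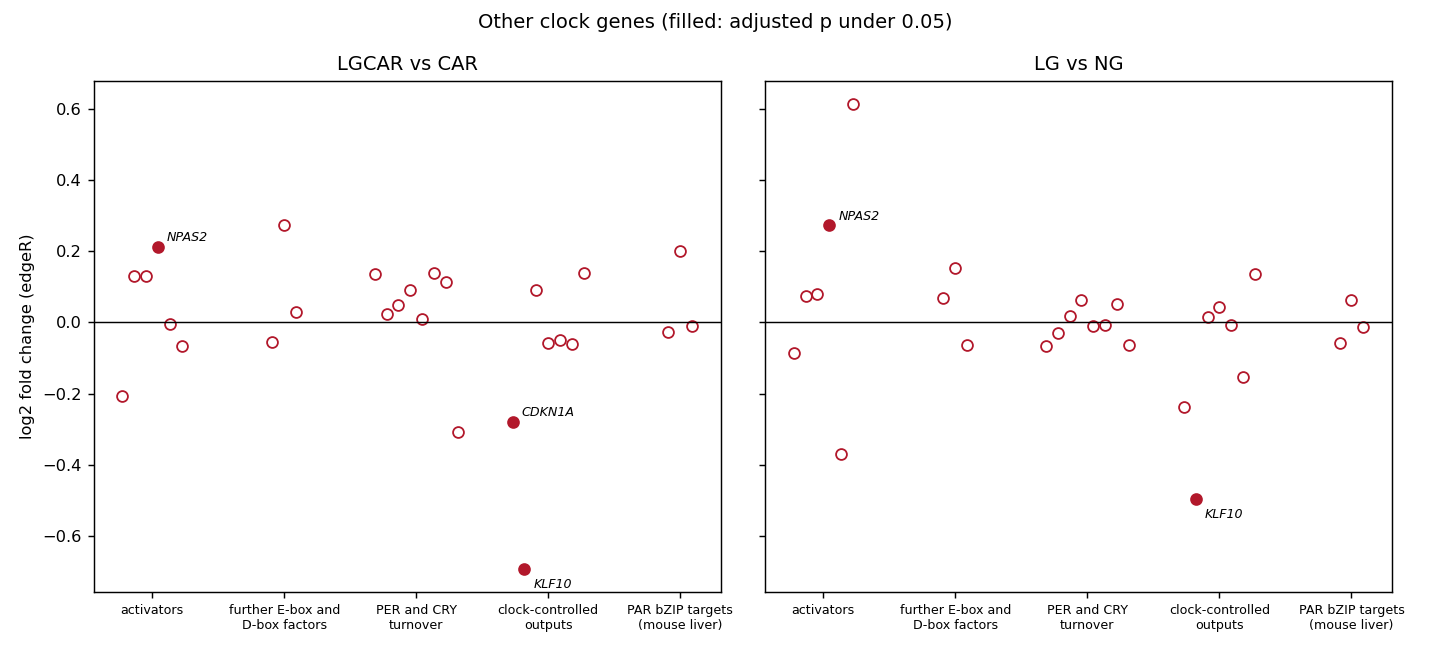
Log2 fold changes by edgeR of the tested genes of the 5 lists of other clock genes (horizontal axis) in LGCAR against CAR and in LG against NG; filled points have an adjusted p under 0.05. Filled points above 0 are NPAS2 in both panels, and filled points below 0 are KLF10 in both panels and CDKN1A in LGCAR against CAR.

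The genes whose log2 CPM followed DBP most closely over the 12 libraries were FOXQ1, a forkhead factor (Pearson r = 0.96), TIMP2, a metalloproteinase inhibitor (0.95), PLEKHG4 (0.93), IGFBP4, a binding protein of insulin-like growth factors (0.93), and MAZ, a zinc finger factor (0.92). After each group's mean was removed, r was 0.82 for FOXQ1, 0.79 for TIMP2, 0.56 for PLEKHG4, 0.62 for IGFBP4 and 0.83 for MAZ. These genes were picked by r over the same 12 libraries, which includes the deviations within groups. The choice thus favours high values here, and they are no separate test of likeness. Among the members, PER1 was the most alike at 0.76, rank 312 of the tested genes, and CRY1 the most opposed at -0.79. The remaining members ran from -0.44 for NFIL3 to 0.60 for NR1D2. With group means removed, r was 0.084 for PER1 and -0.29 for CRY1. These values describe 12 libraries that fall into glucose groups and differ in depth, with LGCAR lowest, so no p is given.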

How the data were processed

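Per the labels' protocols, Trizol RNA was made into 12 MDA-MB-231 libraries with NEBNext Ultra II Directional reagents. The authors deposited whole-number read counts per gene symbol, 1 table per library. The submitters' processing notes name fastp, STAR, Salmon, GATK and GRCh38; which of these made the counts, with what versions and strand setting, is not stated in the sources used here.

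Counts were tested with edgeR 4.0.16 (robust quasi-likelihood, TMM, filterByExpr; limma 3.58.1, R 4.3.3) on all 12 libraries. P-values were adjusted by Benjamini and Hochberg over 15104 genes for each of 8 comparisons, with calls at an adjusted p under 0.05. Printed log2 fold changes reached 2 standard errors or were called; those of DBP are printed throughout. Called genes of the lists are named, at most 3 per list and comparison by smallest p. The 5 genes most like DBP are named by Pearson r of log2 CPM. The members and lists were chosen with earlier results of these data known. Results for some genes of those lists are not reported here. Alternatives were other scalings and filters, DESeq2 1.42.0, limma-voom, groups fitted alone, a replicate block, ribosomal RNA genes left out or their share as a covariate, and each library left out; leaving out NG 1 and LGCAR 3 together was added after the data were seen. No 2 libraries of a group agreed within counting noise. Promoters and loci are RefSeq's, exon overlaps and exon lengths GENCODE 29's. Figures used matplotlib 3.10.9.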

Additional observations from a re-analysis of the deposited data

How the results depend on the processing

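The number of members called moved as follows. In LG against NG, 2 were called; the fit with a replicate block called 1, the ribosomal RNA share as a covariate 4, and leaving out NG 1 and LGCAR 3 together 1, while single libraries left out gave 1 to 2. In LGCAR against NG, 4 were called, with 0 to 5 when 1 library was left out and 0 without NG 1 and LGCAR 3. In LGCAR against CAR, 1 was called, and 0 with a mean of at least 5 CPM (DBP was then not tested), with the ribosomal RNA share, and without NG 1 and LGCAR 3; single libraries left out gave 0 to 1. The cariporide average had 0 called, and 0 to 1 with a library left out; the 1 came without CAR 1, where 1300 genes were called in all, against 1 with every library. The sign of DBP turned only in comparisons where it was not called: leaving out 1 library gave log2 fold changes of -0.30 to 0.015 in CAR against NG, -0.12 to 0.057 in LGCAR against LG and -0.038 to 0.28 in the interaction, and leaving out NG 1 and LGCAR 3 together gave -0.045 in the interaction. The cause of these changes was not tested. Deviations from the group means had r over 0.1 in 2 of 18 same-numbered pairs of libraries and in 5 of 36 other pairs. The labels do not say whether same-numbered libraries belong together, and these values cannot decide whether the replicate block is needed. Over all genes, calls in LGCAR against CAR ran from 18 with the ribosomal RNA share to 413 by DESeq2 around 249. Those in LGCAR against NG ran from 136 without NG 3 to 3542 with the groups fitted alone around 1322. In LG against NG, 261 of all genes were called. There the replicate block gave 147, the ribosomal RNA share 586, and leaving out NG 1 and LGCAR 3 together 87. Single libraries left out gave 83 to 364 there. DBP's 53 to 130 counts per library limit the precision of its fold changes.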
